A study of Mus musculus with 6 samples.

Results

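Genomic imprinting marks a set of mammalian genes in the germ line, by DNA methylation or by histone methylation, so that later only the copy from 1 parent is read. The oocyte is where the maternal marks are written, and the zinc finger proteins ZFP57 and ZFP445 later keep methylated imprints from being erased in the embryo. Alleles were not told apart in these data. The labels maternally expressed and paternally expressed, as used here, describe the gene in embryonic or adult tissues and not a choice between alleles in these cells. The measured genes were a list of 41 symbols, 39 mouse imprinted genes and both protectors, picked by name from the 55291 rows of the count table. Of these, 40 had a row under the listed symbol: 14 maternally expressed genes, 24 paternally expressed genes and the 2 protectors. Nespas, the remaining one, is a RefSeq synonym of Gnasas1, which has a row and is described beside Gnas.

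Messenger RNA was measured in 6 pools of 10 fully grown oocytes, 3 from mature wild-type (WT) mice and 3 from Nat10 conditional knockouts (Nat10 cKO), where Gdf9-cre removes Nat10, the RNA cytidine acetyltransferase gene, from oocytes. All females had received PMSG, a gonadotropin that drives follicle growth, with collection 32 to 48 h later in the design text and 36 to 48 h later in the extraction protocol. Libraries were made by Smart-seq2 with oligo-dT priming and an ERCC RNA spike-in. The labels do not say whether WT females carried floxed alleles or Cre, nor whether the pools came from separate mice, so p-values measure only the spread between pools. The Gdf9 promoter drives Cre in oocytes from early follicle stages, so granulosa cells keep the gene.

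The libraries held 33.5 to 65.5 M (mega) reads in WT and 47.4 to 74.1 M in Nat10 cKO pools. Levels are given as CPM, the reads of a gene per M reads of its library after TMM scaling, which compares each gene with the bulk of the mRNA of its library. Changes are log2 differences of CPM + 1 between Nat10 cKO and WT, so they understate the change of genes below a few CPM. Nat10 was at 42.1, 50.1 and 39.4 CPM in WT and at 5.72, 5.97 and 6.32 CPM in Nat10 cKO pools, so the target was low in every library labelled as a knockout. The 12 oocyte markers summed to 24733.5 to 26297.7 CPM in WT and to 32456.1 to 39051.5 CPM in Nat10 cKO pools. Under TMM scaling 10 of them rose and 1 fell, where 17.4% and 17.6% of all tested genes did. On the deposited scale 2 rose and 0 fell, 16.7% against 7.97% of all tested genes. The 23 granulosa and cumulus markers summed to 533 to 621 CPM in WT and 474 to 506 CPM in Nat10 cKO pools, of which Serpine2 made up 322 and 298 CPM on average. Of the 20 tested granulosa markers 2 rose (Inha and Wt1) and 4 fell (Esr2, Inhba, Inhbb and Cyp19a1, the last at 0.03 on the deposited scale). In all 30% passed under TMM scaling, against 35.0% of all tested genes, with a median change of 0.08, and Amh had 0 reads in WT. On the deposited scale 3 of the 20 rose and 0 fell, 15% against 7.97% of all tested genes. Blood markers summed to 51.4 to 55.8 CPM in WT and 41.4 to 45.0 CPM in Nat10 cKO pools. Without C1qb, the most abundant of them, they summed to 8.82 to 10.9 and 9.23 to 13.3 CPM. Theca, stroma and endothelium markers, with Col3a1 at 0 reads, summed to 134 to 142 and 127 to 146 CPM. Without Pecam1, the most abundant there, these sums were 94.0 to 101 and 64.7 to 90.8 CPM. What these sums reflect in such pools cannot be told from the values and was not tested. The part of these markers in the results on imprinted genes was not tested either.

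Of the 40 genes with a row, 29 passed the filter on low counts and were tested, 12 maternally expressed, 15 paternally expressed and both protectors. Under TMM scaling 5 of the 29 rose (Ndn, Impact, Slc22a18, Phlda2 and Zfp445) and 2 fell (Cdkn1c and Plagl1), and 22 did not pass (limma, Benjamini-Hochberg adjusted p under 0.05 over all genes tested). Among all 18353 genes tested, 17.4% rose and 17.6% fell, in all 35.0%, against 24.1% of the tested imprinted and protector genes. The share called among these genes was thus not above that of the transcriptome, and their median change was 0.01 against 0.00 over all genes. The 3 Nat10 cKO pools lay wholly above the 3 WT pools for 6 of the 29 and wholly below for 3, where 24.1% and 24.2% of all tested genes did so. Of the 12 maternally expressed genes 2 rose and 1 fell, with a median change of 0.00, and of the 15 paternally expressed genes 2 rose and 1 fell, with a median change of -0.02. In edgeR's quasi-likelihood test 5 of the 29 rose and 1 fell, where 16.6% and 17.2% of all genes did. The counts varied when single libraries were left out, which also leaves fewer pools to test. Leaving out WT replicate 3 gave 2 rises and 0 falls in limma (6 and 1 at an unadjusted p under 0.05). Over all genes that run gave 2108 rises and 2201 falls, against 3190 and 3232 with all libraries. With Nat10 cKO replicate 1 left out, 3 of the 30 then tested rose and 1 fell, against 2259 and 2220 of all 18488 genes. Without replicate 2 of that group, 3 of 30 rose and 0 fell, against 2252 and 2213 of 19574. At an unadjusted p under 0.05 in limma that run gave 6 and 0, and all genes were not counted this way. Without Nat10 cKO replicate 3, 5 of 30 rose and 2 fell, against 3308 and 3334 of 18552. Without WT replicate 1, 4 of 31 rose and 1 fell, against 2427 and 2594 of 19601. Without WT replicate 2, 6 of 31 rose and 1 fell, against 3431 and 3251 of 19567. Ndn and Impact were called in each of these runs.

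**Figure D1:**
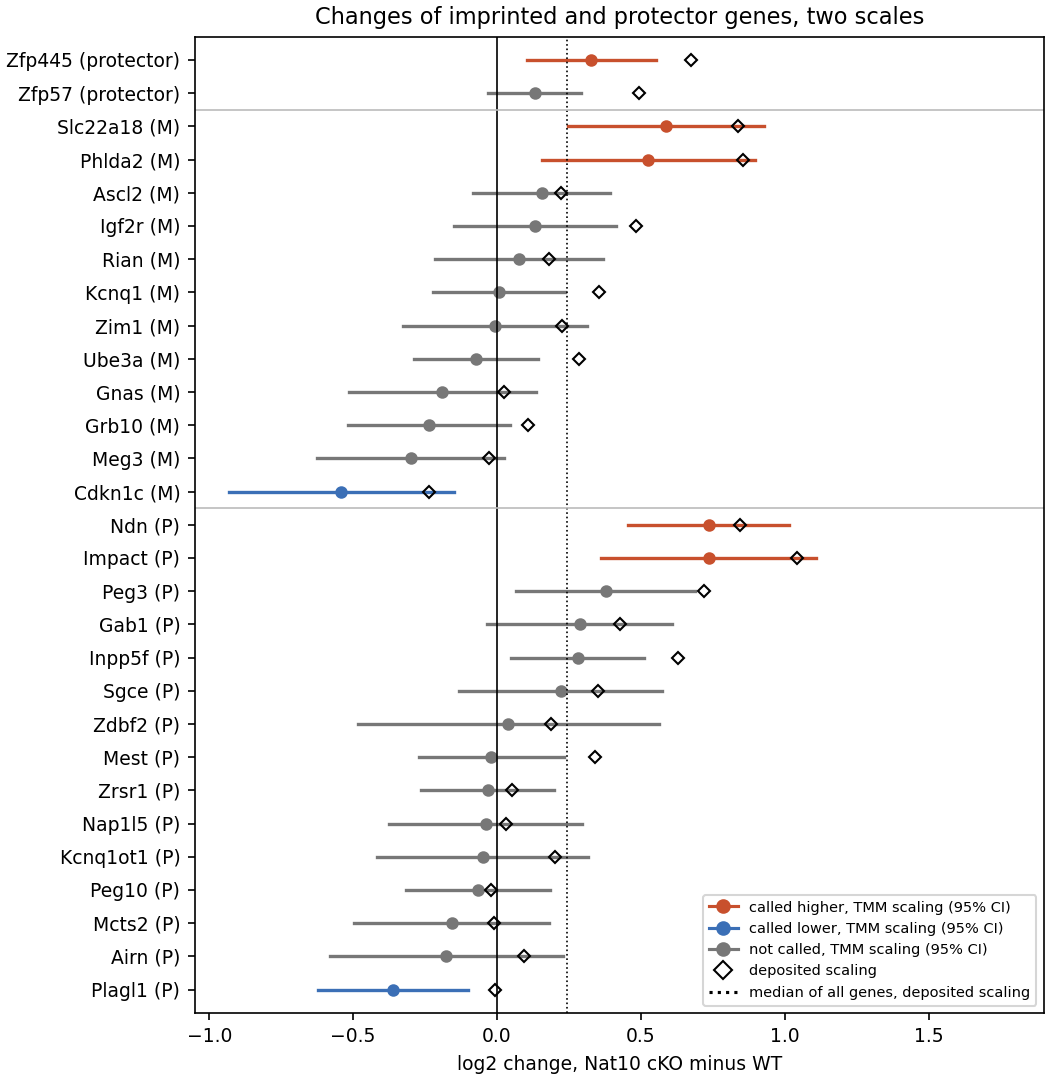
Log2 change (x axis, Nat10 cKO minus WT, n = 3 pools each) of the 29 tested genes (y axis), grouped as protectors, maternally expressed (M) and paternally expressed (P) genes. Filled points with lines are limma estimates with 95% confidence intervals under TMM scaling, and open diamonds are the estimates on the deposited scale, whose median over all genes is the dotted line at 0.24; 5 genes were called higher and 2 lower under TMM scaling.

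As deposited, the values carry 1 scaling factor per library, and on that scale the median change of all tested genes was 0.24 rather than 0.00. There 1 of the 29 genes, Ndn, rose and 0 fell by limma (4 and 0 at an unadjusted p under 0.05), against 6.58% and 1.39% of all genes, in all 7.97%. Of all calls, 82.6% were rises on the deposited scale and 49.7% under TMM scaling. The other called genes kept their sign on the deposited scale but lost the call, as the plot of both scales shows. Changes on the deposited scale are therefore also given below relative to its median.

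Levels of the imprinted and protector genes in WT oocytes, per kilobase (kb) of annotated exon, spanned widely. They reached from near the top of the tested transcriptome, for the protector Zfp57 only, to the bottom. Zfp57 stood far above all others at 382 CPM per kb, rank 106 of 17930 ranked genes. Mest, a paternally expressed hydrolase gene, came next at 34.8 CPM per kb, rank 1843. Phlda2, Plagl1, Kcnq1, Igf2r, Ube3a, Inpp5f and Zfp445 followed between 7.98 and 3.84 CPM per kb, in that order. Phlda2 and Plagl1, Plagl1 and Kcnq1, Igf2r and Ube3a, and Ube3a and Inpp5f each differed by less than the larger of their SDs between WT pools, whereas Kcnq1 was above Igf2r in every WT pool. At the other end, Peg10, Ndn, Kcnq1ot1 and Rian lay between 0.0470 and 0.0172 CPM per kb, ranks 17391 to 17845.

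**Figure D2:**
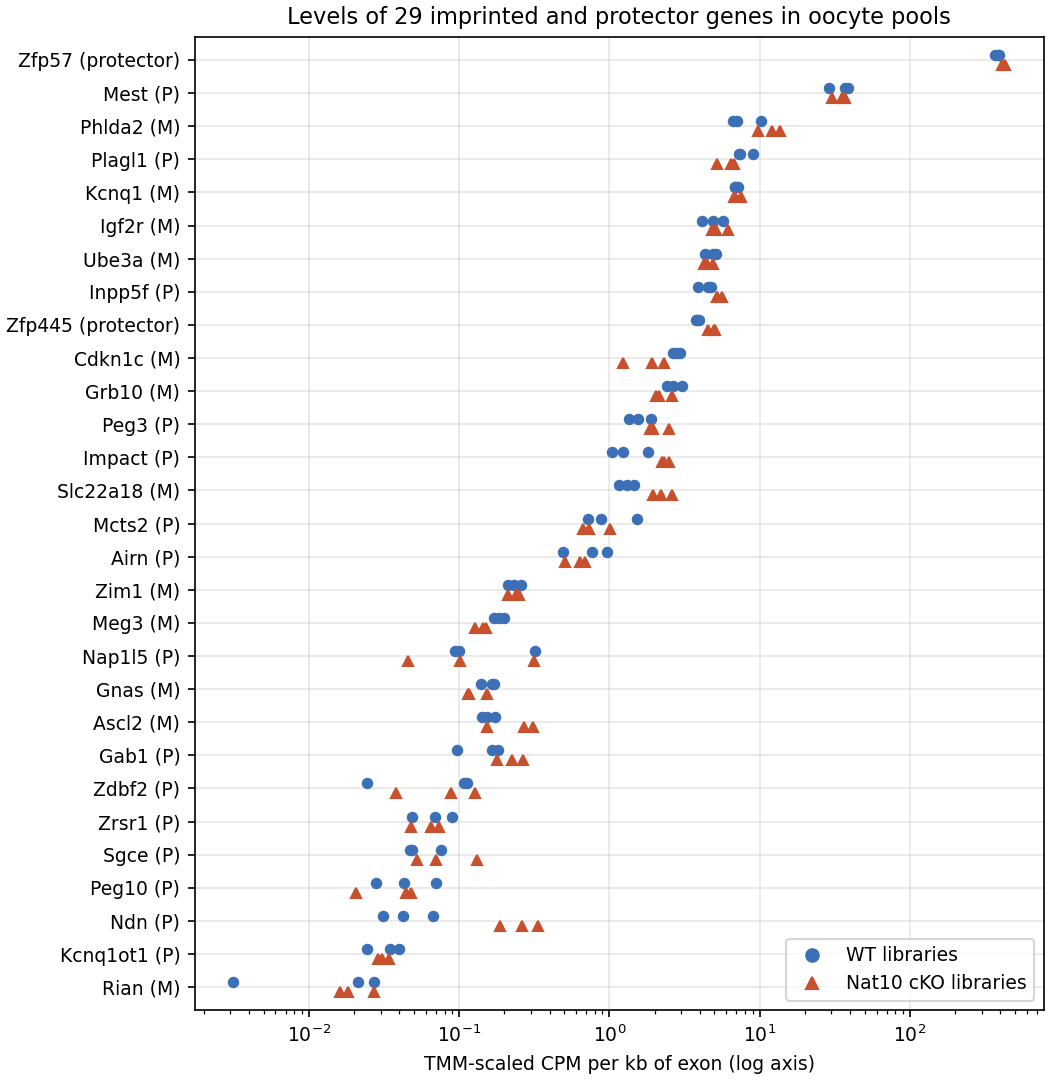
Level of each tested gene in each library (x axis, TMM-scaled CPM per kb of exon, log axis; circles WT, triangles Nat10 cKO; y axis, genes ordered by their WT mean). Zfp57 lies at 382 CPM per kb in WT and Mest at 34.8, and for most genes the circles and triangles overlap.

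The protectors were examined first, since they act on the imprints of the other genes. ZFP57 is a KRAB zinc finger protein that binds the methylated hexanucleotide TGCCGC at imprinting control regions and recruits TRIM28. Zfp57 was at 1470.5, 1469.65 and 1393.2 CPM in WT and at 1543.9, 1572.8 and 1628.3 CPM in Nat10 cKO pools. The groups did not overlap, with the Nat10 cKO pools higher, but the difference was small: 0.13 on the log2 scale (95% CI -0.03 to 0.29, adjusted p = 0.192), and 0.25 relative to the median on the deposited scale. Zfp445, which encodes the second KRAB zinc finger protector, was at 27.9, 28.3 and 29.1 CPM in WT and at 33.6, 37.0 and 37.3 CPM in Nat10 cKO pools. All Nat10 cKO pools were above all WT pools, and Zfp445 rose by 0.33 (SE 0.104, limma adjusted p = 0.0256). The call was lost on the deposited scale (0.68, or 0.43 relative to its median, adjusted p = 0.342), without the filter (0.0569), and when any 1 library except WT replicate 2 was left out (0.0516 to 0.0722).

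The ZFP57 hexanucleotide was then looked for in the promoters of the imprinted and protector genes, to show which of them hold it beside their values. RefSeq promoter windows on GRCm38.p6, 250 bases before to 50 after a start, were used for 32 of the genes, in 47 windows. Of the called genes, Impact and Cdkn1c had no window in this set. TGCCGC or its reverse complement GCGGCA, each counted also where it overlaps the other, was in 12 of the 47 windows (25.5%), against 11.6% of all 32851 windows of the same length. The median number of CpG was 15 in these windows against 7 in all windows. Both protectors are among the 32 genes, and their windows held no match. The matches were in windows of Grb10, Igf2, Mcts2, Meg3, Mest, Nap1l5, Nnat, Plagl1, Snurf, Zdbf2 and Zim1. Windows of a gene can overlap, and those of Mest starting at 30737800 and 30737803 hold the same 2 matches, so the share counts them more than once. A match of letters is not a bound site, and methylation was not measured. Mest and Plagl1, whose promoter regions are methylated on the maternal copy, are shown with the hexanucleotide in capitals. Ndn, Slc22a18 and Phlda2, rising genes described next, are shown too and have no match in these windows. Windows without a match also include those of genes that were not called, such as Igf2r, Ube3a, Peg3 and Kcnq1ot1, so presence or absence here is no contrast between genes that changed and others. The windows, each on the gene's strand, are at chr6:30737800-30738099 (+, Mest), chr10:13090582-13090881 (+, Plagl1), chr7:62348027-62348326 (+, Ndn), chr7:143473539-143473838 (+, Slc22a18) and chr7:143502475-143502774 (-, Phlda2).
Mest: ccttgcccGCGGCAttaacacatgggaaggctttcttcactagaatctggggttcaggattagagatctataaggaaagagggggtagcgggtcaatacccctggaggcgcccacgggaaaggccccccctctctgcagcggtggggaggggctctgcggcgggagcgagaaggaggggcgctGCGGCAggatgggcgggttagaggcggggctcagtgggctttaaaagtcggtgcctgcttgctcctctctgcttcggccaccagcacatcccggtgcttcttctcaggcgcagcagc
Plagl1: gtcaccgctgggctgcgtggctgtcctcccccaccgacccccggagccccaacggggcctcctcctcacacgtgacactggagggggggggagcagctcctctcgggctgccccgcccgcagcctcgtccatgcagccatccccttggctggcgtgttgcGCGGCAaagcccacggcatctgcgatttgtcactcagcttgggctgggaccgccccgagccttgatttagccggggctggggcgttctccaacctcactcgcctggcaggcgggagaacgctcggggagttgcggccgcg
Ndn: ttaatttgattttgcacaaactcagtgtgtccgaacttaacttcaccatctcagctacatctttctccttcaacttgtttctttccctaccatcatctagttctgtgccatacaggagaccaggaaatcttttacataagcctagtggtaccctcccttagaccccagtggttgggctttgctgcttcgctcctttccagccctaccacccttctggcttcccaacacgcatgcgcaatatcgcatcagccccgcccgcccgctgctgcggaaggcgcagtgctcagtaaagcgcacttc
Slc22a18: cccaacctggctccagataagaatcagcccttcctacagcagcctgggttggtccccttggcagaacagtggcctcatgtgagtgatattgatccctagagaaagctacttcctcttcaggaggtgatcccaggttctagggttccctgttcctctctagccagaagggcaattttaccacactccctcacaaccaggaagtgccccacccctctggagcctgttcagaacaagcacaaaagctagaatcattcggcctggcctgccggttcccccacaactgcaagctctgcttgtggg
Phlda2: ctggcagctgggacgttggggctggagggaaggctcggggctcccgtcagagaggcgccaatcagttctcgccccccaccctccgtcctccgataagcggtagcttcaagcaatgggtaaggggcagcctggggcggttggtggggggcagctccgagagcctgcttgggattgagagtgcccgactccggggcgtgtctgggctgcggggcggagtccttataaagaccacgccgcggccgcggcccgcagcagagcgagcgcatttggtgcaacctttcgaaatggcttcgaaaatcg
The hexanucleotide occurs 2 times in the Mest window and 1 time in that of Plagl1. The windows of Phlda2 and Plagl1 hold 26 CpG each, that of Ndn 11 and that of Slc22a18 2.

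Ndn was the imprinted gene with the strongest support for a change, although it was scarce. Ndn encodes necdin, a growth suppressor of the MAGE family, and lies in the Prader-Willi/Angelman domain of chromosome 7 (62346569 to 62350262, 1 exon). The libraries held 8, 4 and 10 Ndn reads in WT and 92, 46 and 50 in Nat10 cKO pools, or 0.247, 0.115 and 0.155 CPM against 1.23, 0.967 and 0.692 CPM. These read counts are all even, and if 2 reads stem from 1 fragment they stand for fewer fragments. Every Nat10 cKO pool was well above every WT pool, and the mean was 5.58-fold higher, yet still near 1 CPM. Ndn rose by 0.74 on the log2(CPM + 1) scale (SE 0.130, limma adjusted p = 0.000971), and by 2.49 in edgeR's quasi-likelihood test, which has no pseudocount of 1 (adjusted p = 0.00136). On the deposited scale it rose as well (0.84, or 0.60 relative to the median, adjusted p = 0.000214). It passed the filter through the Nat10 cKO pools, since all 3 of these and 1 WT pool exceeded the minimum of 0.177 CPM, but it was also called without the filter.

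The other genes of that domain on chromosome 7 did not share the level of Ndn or its call. Magel2, a ubiquitin ligase cofactor gene 26.7 kb from Ndn, had 0, 2 and 0 reads in WT and 4, 0 and 8 in Nat10 cKO pools. Mkrn3, a RING finger gene 36.0 kb beyond Magel2, had 2 reads in 1 WT pool and 2 in 1 Nat10 cKO pool. Both were too scarce to test. Snurf was at 0 reads in every library, but all of its annotated exon bases are also exons of Snrpn, so this 0 sets no upper limit, and the handling of shared reads was not given in the sources used here. Snrpn, a splicing protein gene, was at 12.6, 11.2 and 12.3 CPM in WT and 15.02, 15.6 and 14.5 CPM in Nat10 cKO pools, a difference of 0.30 that did not pass (adjusted p = 0.0768). Ube3a, the maternally expressed ubiquitin ligase gene of the same domain, was at 88.6, 106 and 101 CPM in WT and 91.5, 88.1 and 102 CPM in Nat10 cKO pools. Its pools overlapped, with a difference of -0.07 (95% CI -0.29 to 0.14) that is 0.04 above the median on the deposited scale.

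**Figure D3:**
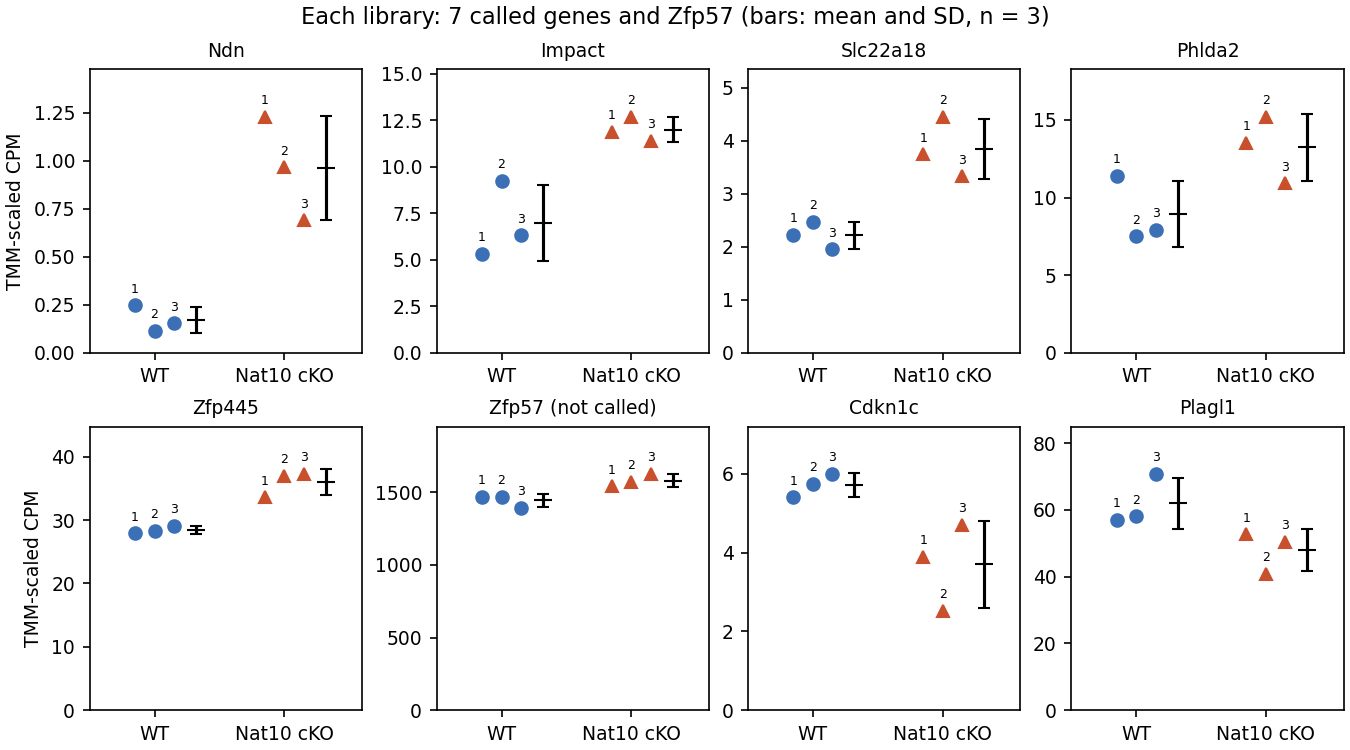
TMM-scaled CPM (y axis, from 0) in each library of WT (circles) and Nat10 cKO (triangles), numbered by replicate, with the mean and SD of 3 pools beside them, for the 7 called genes and Zfp57. Ndn, Impact, Slc22a18, Phlda2 and Zfp445 are higher and Cdkn1c and Plagl1 lower in Nat10 cKO pools, and only Phlda2 has overlapping groups.

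Impact, a paternally expressed gene on chromosome 18 whose product restrains the translation-control kinase GCN2, also rose. It was at 5.32, 9.25 and 6.33 CPM in WT and at 11.9, 12.7 and 11.4 CPM in Nat10 cKO pools. All Nat10 cKO pools were above all WT pools, and within WT replicate 2 was the highest. Impact rose by 0.74 (SE 0.173, limma adjusted p = 0.00565), a mean 1.72 times that of WT. The call held without any 1 library and under each alternative test and filter, and was lost on the deposited scale (1.04, or 0.80 relative to its median, adjusted p = 0.0737).

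In the Kcnq1 domain on distal chromosome 7, Slc22a18 and Phlda2 rose and Cdkn1c fell, while Kcnq1, Kcnq1ot1 and Ascl2 were not called. Over all tested genes 35.0% were called, so calls in this domain are no result by themselves. The control region of the domain is the promoter of Kcnq1ot1, a long antisense RNA that silences maternally expressed genes on the paternal copy. Kcnq1ot1 (143203458 to 143296549) was at 2.29, 3.73 and 3.25 CPM in WT and 3.20, 2.86 and 2.68 CPM in Nat10 cKO pools, with overlapping groups (-0.05, 95% CI -0.42 to 0.32). Kcnq1, the potassium channel gene it runs against, was at 28.2, 29.4 and 28.2 CPM in WT and 27.5, 30.9 and 27.9 CPM in Nat10 cKO pools. The Kcnq1 groups overlapped and differed by 0.01 (95% CI -0.22 to 0.24), which is 0.11 above the median on the deposited scale. Exons of both overlap on opposite strands, over 2.96% of the exon length of Kcnq1, with strand use in counting not given in the sources used here.

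Slc22a18, an organic cation transporter gene, and Phlda2, a pleckstrin-homology gene that limits placental growth, are neighbours whose 3′ ends lie 2.21 kb apart. Slc22a18 (143473736 to 143499334) was at 2.23, 2.47 and 1.96 CPM in WT and 3.74, 4.46 and 3.33 CPM in Nat10 cKO pools. All Nat10 cKO pools were higher, and it rose by 0.59 (SE 0.158, limma adjusted p = 0.0117), a call lost when WT replicate 3 (adjusted p = 0.0607) or the second Nat10 cKO pool (0.0511) was left out. Phlda2 (143501545 to 143503150) was at 11.4, 7.498 and 7.93 CPM in WT and 13.5, 15.2 and 10.9 CPM in Nat10 cKO pools. Here the groups overlapped, since WT replicate 1 exceeded Nat10 cKO replicate 3, and Phlda2 rose by 0.53 (SE 0.172, limma adjusted p = 0.0298). The Phlda2 call was lost when WT replicate 2 (adjusted p = 0.0789) or 3 (0.121) was left out, as with Nat10 cKO replicate 1 (0.0901) or 2 (0.108) left out, and without the filter (0.0573). On the deposited scale, where neither passed, both lay above the median, Slc22a18 by 0.60 (adjusted p = 0.0972) and Phlda2 by 0.61 (adjusted p = 0.184).

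Cdkn1c, the gene of the cell cycle inhibitor p57, lies 12.7 kb from Slc22a18 and moved the other way. It was at 5.41, 5.75 and 6.001 CPM in WT and at 3.89, 2.52 and 4.70 CPM in Nat10 cKO pools (143458339 to 143461050). Every Nat10 cKO pool was below every WT pool, with the lowest value in replicate 2, and Cdkn1c fell by 0.54 (SE 0.182, limma adjusted p = 0.0336). The call was lost in edgeR (adjusted p = 0.0507), without the filter (0.0839), on the deposited scale (-0.23, or -0.48 relative to its median, 0.748) and with any 1 library except Nat10 cKO replicate 3 left out (0.0553 to 0.157). An antisense gene model, Gm44732, overlaps 30.65% of its exon length. The summed granulosa markers were also lower in all Nat10 cKO pools, although the median change of the 20 tested was 0.08. On the deposited scale 3 of these markers rose and 0 fell. Their part in the Cdkn1c values was not tested. Ascl2, a trophoblast transcription factor gene at the other edge of the domain, had 8, 8 and 18 reads in WT and 33, 24 and 18 in Nat10 cKO pools and did not pass (0.15, 95% CI -0.08 to 0.39).

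**Figure D4:**
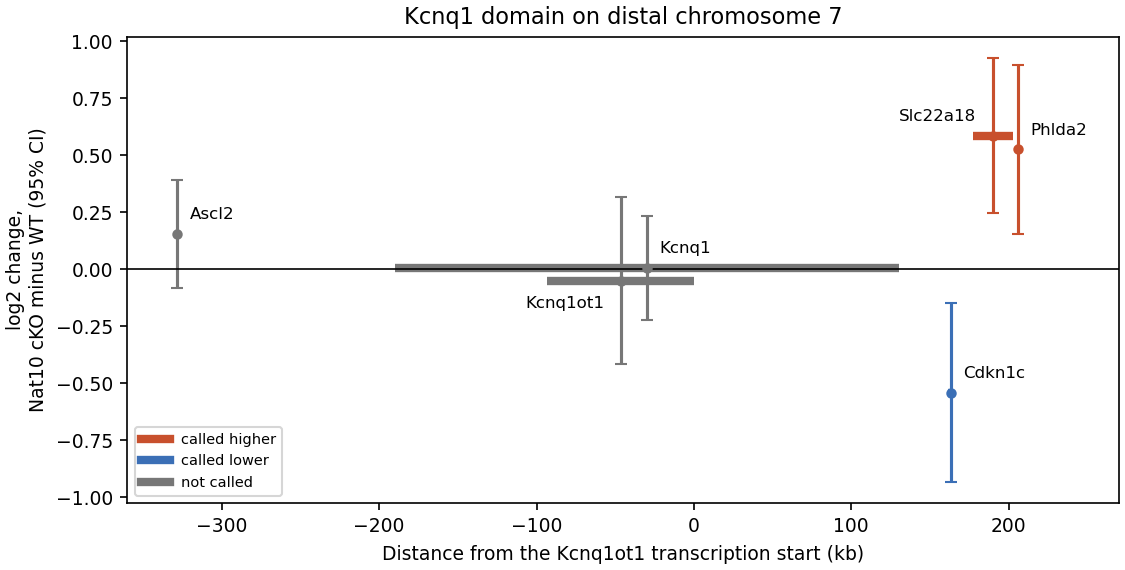
Log2 change (y axis, Nat10 cKO minus WT, limma, TMM scaling; points with 95% confidence intervals, n = 3 pools each) of 6 tested genes of the Kcnq1 domain against distance from the start of Kcnq1ot1 in kb (x axis; thick bars span each gene). Slc22a18 and Phlda2 are called higher, Cdkn1c lower, and Kcnq1, Kcnq1ot1 and Ascl2 have intervals that include 0.

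Plagl1, which encodes a zinc finger transcription factor with targets among other imprinted genes, was the second gene to fall. Plagl1 (chromosome 10, 13060504 to 13131694) was at 57.1, 58.1 and 70.8 CPM in WT and 52.7, 41.0 and 50.5 CPM in Nat10 cKO pools. The groups did not overlap, but Nat10 cKO replicate 1 came near the lowest WT pools. Plagl1 fell by 0.36 (SE 0.121, limma adjusted p = 0.0327), a call lost when WT replicate 3 (adjusted p = 0.179) or the second Nat10 cKO pool (0.146) was left out, without the filter (0.106) or with library sizes alone (0.0548). On the deposited scale the difference was -0.01, or -0.25 relative to the median (adjusted p = 0.994). Grb10, a growth-restraining adaptor gene, was at 23.9, 27.5 and 22.0 CPM in WT and 18.7, 19.6 and 23.7 CPM in Nat10 cKO pools. The Grb10 groups overlapped, and its difference of -0.24 (95% CI -0.52 to 0.04) did not pass.

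Peg3 and Inpp5f, both paternally expressed, came just short of the threshold. Peg3, a large zinc finger gene on proximal chromosome 7, was at 18.1, 25.1 and 20.8 CPM in WT and 26.1, 24.8 and 33.1 CPM in Nat10 cKO pools, and WT replicate 2 overlapped the Nat10 cKO range. Its difference was 0.38 (95% CI 0.07 to 0.69, adjusted p = 0.0568), and it passed when WT replicate 2 (adjusted p = 0.0158) or the second Nat10 cKO pool (0.0439) was left out, and in DESeq2 (0.0319). Zim1, 7.44 kb from Peg3 and maternally expressed, was lower, at 1.72 to 2.10 CPM in WT and 1.71 to 2.02 CPM in Nat10 cKO pools, with a difference of -0.01 (95% CI -0.33 to 0.31). Inpp5f, an inositol phosphatase gene, was at 32.5, 39.2 and 37.5 CPM in WT and 43.0, 46.6 and 43.3 CPM in Nat10 cKO pools. All Nat10 cKO pools were above all WT pools, with a difference of 0.28 (95% CI 0.05 to 0.51, adjusted p = 0.0566) that passed without WT replicate 2 (0.0286) and in DESeq2 (0.0358).

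Igf2r and Mest, abundant imprinted genes of growth control, showed no difference beyond the spread between pools. Igf2r encodes the receptor that clears IGF2 and was at 38.4, 53.4 and 45.3 CPM in WT and 47.9, 44.8 and 57.2 CPM in Nat10 cKO pools. Its difference was 0.13 (95% CI -0.15 to 0.41), 0.24 relative to the median on the deposited scale. Airn, the antisense RNA that silences Igf2r in other tissues, ranged from 1.78 to 3.46 CPM in WT and from 1.83 to 2.48 CPM in Nat10 cKO pools (-0.18, 95% CI -0.58 to 0.23). Mest was at 152, 114 and 146 CPM in WT and 140, 145 and 119 CPM in Nat10 cKO pools. Its groups overlapped widely, with a difference of -0.02 (95% CI -0.27 to 0.23), which is 0.10 above the median on the deposited scale; 23.1% of its exon length overlaps Copg2 on the opposite strand. Few reads were counted for the IGF2 ligand: Igf2, the growth factor gene, had 0, 2 and 4 reads in WT and 2, 0 and 0 in Nat10 cKO pools, and H19, its neighbouring noncoding RNA, had 0, 0 and 2 reads against 6, 0 and 2. Of the Igf2 exon length, 62.8% is shared with Gm49394 on the same strand, so its reads may have been counted elsewhere or dropped.

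The Dlk1-Meg3 domain on chromosome 12, whose control region is methylated on the paternal copy, was read at low levels from its noncoding genes. Meg3, a long noncoding RNA, was at 3.62, 3.10 and 3.36 CPM in WT and 2.59, 2.29 and 2.74 CPM in Nat10 cKO pools. The Meg3 groups did not overlap, but the difference of -0.30 (95% CI -0.62 to 0.02, adjusted p = 0.138) did not pass. Rian, a host of small nucleolar RNAs, had 16, 2 and 25 reads in WT and 37, 14 and 24 in Nat10 cKO pools (0.08, 95% CI -0.22 to 0.37). Mirg, a microRNA host, was below the filter with 0, 2 and 0 reads in WT and 6, 10 and 8 in Nat10 cKO pools. The protein-coding genes of the domain were close to absent: Dlk1, a Notch-like ligand gene, had 2 reads in 1 WT pool, and Rtl1, a retrotransposon-derived gene, had 0 reads in all 6 libraries. For Rtl1, 0 reads among 325.639 M allows up to 0.00921 CPM, a limit of 3 reads over all libraries that covers counting error only and is too low if 2 reads stem from 1 fragment.

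Gnas, which encodes the stimulatory G protein subunit that keeps cyclic AMP high in the arrested oocyte, was counted at 1.58, 1.84 and 1.91 CPM in WT and 1.73, 1.30 and 1.29 CPM in Nat10 cKO pools. The Gnas groups overlapped, with a difference of -0.19 (95% CI -0.52 to 0.14), and 13.1% of its exon length overlaps an antisense gene. Gnasas1, the antisense RNA also called Nespas, was at 0.342 to 0.742 CPM in WT and 0.294 to 0.455 CPM in Nat10 cKO pools (-0.13, 95% CI -0.40 to 0.14). Without strand, reads of this pair cannot be told apart where the exons overlap.

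Mcts2, Zrsr1, Nap1l5, Nnat and Peg13 each lie inside the span of a larger protein-coding host gene, and each was far below its host per length. Mcts2, a retrogene inside H13, was at 1.05 CPM per kb in WT against 27.8 for H13. Zrsr1, a retrogene of a splicing factor inside Commd1, was at 0.0689 against 13.6, and Nap1l5, a retrogene inside Herc3, at 0.171 against 4.17. Nnat, a proteolipid gene inside Blcap, was at 0.0266 against 61.7, and the noncoding RNA Peg13 inside Trappc9 at 0.00625 against 4.35. None of the nested genes was called: Mcts2, Zrsr1 and Nap1l5 differed by -0.16, -0.03 and -0.04 (limma), with intervals that include 0, and Nnat and Peg13 were too scarce to test. Nnat had 0, 4 and 2 reads in WT and 21, 19 and 4 in Nat10 cKO pools. Of the hosts, Herc3 rose by 0.44 (SE 0.121, limma adjusted p = 0.0129), Blcap rose by 0.26 (SE 0.0859, 0.0313) and Commd1 fell by 0.36 (SE 0.0989, 0.0130). H13 and Trappc9 did not pass, where 35.0% of all tested genes did. Whether a host and its nested gene changed by different amounts was not tested. On the deposited scale none of these hosts passed by limma (adjusted p = 0.245 to 0.998).

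Of the remaining scarce genes, none of those tested was called. Sgce, a sarcoglycan gene, and Peg10, a retrotransposon-derived placental gene, start 0.099 kb apart on opposite strands and were at 0.498 to 0.804 and 0.186 to 0.466 CPM in WT pools. Their Nat10 cKO ranges, 0.553 to 1.39 CPM for Sgce and 0.138 to 0.321 CPM for Peg10, overlapped those of WT. Zdbf2, a zinc finger gene, varied widely within both groups, from 0.309 to 1.44 CPM in WT and 0.484 to 1.605 CPM in Nat10 cKO pools (0.04, 95% CI -0.48 to 0.56). Gab1 and Sfmbt2, known to be imprinted by histone rather than DNA methylation from the oocyte, were low as well. Gab1, a signalling adaptor gene, was at 0.495, 0.919 and 0.840 CPM in WT and 0.909, 1.14 and 1.36 CPM in Nat10 cKO pools (0.29, 95% CI -0.03 to 0.61). Sfmbt2, a Polycomb-related gene, had 4, 12 and 30 reads in WT and 10, 6 and 12 in Nat10 cKO pools and was below the filter. In all, 11 genes were too scarce to test, 2 of them at 0 reads and the others at 2 to 74 reads over the 6 libraries.

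The machinery that writes, keeps and erases imprints was listed beside the imprinted genes. Of 34 tested genes of this list, 7 rose and 10 fell, or 50% against the 35.0% of all genes, with a median change of 0.03. On the deposited scale 3 passed by limma, all of them rises, 8.82% against the 7.97% of all genes. Dnmt3a, Dppa3 and Ezh2, singled out after their values were seen, fell by 0.33, 0.23 and 0.26 under TMM scaling. On the deposited scale their changes were 0.03, 0.13 and 0.10, all below its median of 0.24. Relative to that median, Dnmt3a was at -0.22 and Dppa3 at -0.11, without passing (limma adjusted p = 0.979 and 0.882). Kdm1b, the histone demethylase needed to set many maternal imprints, rose from 279 ± 67.0 to 473 ± 37.8 CPM (SD, n = 3). Ehmt2, a histone H3 lysine 9 methyltransferase gene, rose from 0.919 ± 0.487 to 4.14 ± 0.285 CPM, and Rbbp4, a histone-binding protein gene, rose by 0.46. Tet3 and Tet1, which encode methylcytosine dioxygenases, fell by 0.71 and 0.80, and the Polycomb genes Suz12 and Eed fell by 1.07 and 0.40, as did Arid4a, a chromatin gene, by 0.62 (limma, adjusted p up to 0.00597). These further genes were chosen after their values were seen: Trim28, the corepressor of both protectors, Dnmt1, the maintenance methyltransferase gene, and Dnmt3l, the cofactor for imprint methylation. Their differences were 0.17 (95% CI -0.08 to 0.43), -0.04 (95% CI -0.27 to 0.20) and 0.02 (95% CI -0.16 to 0.20), and none passed in limma.

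Of 39 tested genes on a list of other imprinted genes, 7 rose and 7 fell, 35.9%, close to the 35.0% of all genes, with a median change of 0.05. On the deposited scale 4 rose and 1 fell, 12.8% against the 7.97% of all genes. The fall was that of Osbpl5, named after its values were seen, which had 119 CPM in WT replicate 1 but 18.9 and 4.88 CPM in the other WT pools and 3.68 to 3.83 CPM in Nat10 cKO pools; it did not pass under TMM scaling (adjusted p = 0.214). Dhcr7, the gene of the last step of cholesterol synthesis, rose from 9.73 ± 0.374 to 23.6 ± 5.94 CPM and Pon3, a paraoxonase gene, from 1.18 ± 0.103 to 3.60 ± 0.5996 CPM (SD, n = 3). Xlr3b, an X-linked gene, and Cttn, the cortactin gene, rose by 1.01 and 0.81. Ppp1r9a, Cobl, Atp10a and Gpr1 fell by 0.90, 0.65, 0.45 and 0.38 (limma, adjusted p up to 0.0115).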

How the data were processed

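The submitters' processing notes name featureCounts, STAR 2.7.10a, Trim Galore 0.6.7 and mm10. Settings, strand and annotation were not given in the sources used here. For WT replicate 1 the deposited values are whole read counts, and those of the other 5 libraries are a signal, reads multiplied by the authors with 1 factor per library (1.38 and 0.945 for WT replicates 2 and 3; 0.920, 0.908 and 0.932 for Nat10 cKO replicates 1 to 3). After division by the lowest value above 0 in its column, 100% of values were whole to within 0.001, and these reads were analysed. Of counts from 1 to 20, 81.7 to 85.1% per library were even, so 2 reads may stem from 1 fragment.

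The main test was limma 3.58.1 (trended, robust) in R 4.3.3 on log2(CPM + 1), with CPM from recovered reads and TMM factors of edgeR 4.0.16. Genes were kept by filterByExpr with a minimum count of 10, two-sided p-values were adjusted by Benjamini-Hochberg over all 18353 genes, and the threshold was 0.05. Alternatives were edgeR's quasi-likelihood test, which called 3053 genes higher and 3149 lower, DESeq2 1.42.0, a pseudocount of 0.1, median-of-ratios factors, library sizes only, no filter, a replicate block, each library left out, and the deposited scale, divided by 1 constant for all libraries. The fits were tested on simulated data. Positions and exon lengths came from GENCODE M21 on GRCm38, the assembly of mm10; 53292 of 55291 symbols matched. Plots used matplotlib 3.10.9.

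The genes and lists were chosen with earlier results of these data known. Values in each library are given for genes past the threshold, for genes of at least 10 CPM on average and for both protectors, and for other genes where reads were few; from the 2 further lists the 8 called genes with the smallest p are named. Nested and overlapping partner genes are given beside the imprinted gene.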

Additional observations from a re-analysis of the deposited data

How the results depend on the processing

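None of the 7 called imprinted and protector genes changed sign under an alternative run, and Ndn was called in each of them. The 5 rises became 1 on the deposited scale and 3 without the filter; the 2 falls became 1 with library sizes only or in edgeR, and 0 on the deposited scale or without the filter (by limma, 0 and 2 at an unadjusted p under 0.05). Leaving out 1 library gave 2 to 6 rises and 0 to 2 falls among the imprinted and protector genes; falls were 0 with WT replicate 3 or the second Nat10 cKO pool left out, where 1 and 0 had an unadjusted p under 0.05 in limma. DESeq2 gave 7 rises and 2 falls, with Peg3 and Inpp5f added, against 3284 and 3236 over all genes. Over all genes, rises and falls were 1207 and 255 on the deposited scale and 2601 and 2323 without the filter. With library sizes only they were 3405 and 2967. Without 1 library they were 2108 to 3431 and 2201 to 3334, with the fewest rises without WT replicate 3. With the replicate number as a block, 5 imprinted or protector genes rose and 2 fell, and over all genes 3070 rose and 3164 fell, and the block changed no call among the imprinted and protector genes; other genes were not compared one by one. Deviations from the group mean correlated weakly between same-numbered pools (0.0788, 0.0747 and -0.12 for numbers 1, 2 and 3). The highest correlation was that of WT replicate 3 with Nat10 cKO replicate 1 (0.237). With 3 pools per group, such correlations cannot decide whether same-numbered pools were handled together, and the labels give only the number. The cause of the changes between settings was not tested. Depth limits the 11 untested genes: a WT library with 0 reads allows 0.0458 to 0.0895 CPM, a limit of 3 reads that covers counting error only and is too low if 2 reads stem from 1 fragment.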
